A study of Mus musculus with 8 samples.

Results

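The respiratory chain was followed in cytokine-treated mouse myotubes through 53 genes. Of these, 40 are nuclear genes for subunits of complexes I to IV and for cytochrome c, and 13 are the protein-coding genes of the mitochondrial genome. The members were selected by symbol, with no threshold on a measured value, although earlier results of these data were known when the list was drawn up. All 53 were found among the 53647 genes counted in each library. A filter on low counts kept 49 of the 53: all 40 nuclear members and 9 of the 13 mitochondrially encoded ones. The genes mt-Nd3, mt-Nd4l, mt-Atp6 and mt-Atp8 did not pass it and were not tested.

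The cells were primary myotubes, the multinucleated fibres that cultured myoblasts form when they fuse, and all of them were wild type. The myoblasts came from the limb muscle of pups 2 to 3 days old. They were grown in Ham's F-10 medium with 20% fetal bovine serum and bFGF, a growth factor that keeps myoblasts dividing, at 2.5 ng/ml, and were moved to DMEM with 5% horse serum to differentiate. The cytokines OSM (oncostatin M), LIF (leukaemia inhibitory factor) and IL6 (interleukin 6) were each given to 1 group for 48 h at 250 ng/ml, a control group received none of them per its label, and all were harvested 72 h after differentiation. Each of the 4 groups has 2 libraries of poly(A)-selected RNA. The labels do not say whether the 2 came from separate animals or dishes, so p-values measure the spread between these libraries, which may be technical.

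OSM, LIF and IL6 belong to 1 cytokine family and signal through receptor complexes that contain gp130. The respiratory chain passes electrons from NADH (complex I) and succinate (complex II) through complex III and cytochrome c to oxygen at complex IV. Complexes I, III and IV pump protons, and ATP synthase uses the gradient. Complex II is made entirely from nuclear genes, whereas the catalytic cores of complexes III and IV and the membrane arm of complex I include proteins read from mitochondrial DNA, so the chain depends on the output of both genomes. In muscle, several complex IV subunits also exist as a heart and skeletal muscle isoform that replaces a general isoform as fibres mature.

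The libraries held 29482077 to 30025471 gene counts each. All 10 myotube markers were above 1 CPM (a gene's counts scaled to a library of fixed size, here with TMM scaling) in every library, and their summed level ranged from 27230 to 28481 CPM in controls, 23824 to 26505 with IL6, 24316 to 25836 with LIF and 23485 to 23664 with OSM. Of the markers of other cell types, 6 of 8 (macrophage), 5 of 7 (endothelial), 5 of 6 (adipocyte) and 3 of 8 (fibroblast) were under 1 CPM in every library. In each list 1 gene had 0 counts in every library: C1qb (macrophage), Emcn (endothelial), Ucp1 (adipocyte) and Lum (fibroblast). Summed macrophage markers stayed between 2.68 and 5.44 CPM and endothelial markers between 4.99 and 6.44 CPM, whereas fibroblast markers, Col1a1 and Col3a1 among them, summed to 1559 to 2219 CPM.

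Some nuclear respiratory chain genes fell with OSM and with LIF by small steps, none rose, and the complex IV muscle isoform Cox6a2 fell furthest. With OSM, 12 of the 40 nuclear members fell and none rose at an edgeR adjusted p under 0.05, and the log2 changes of the 40 had a median of -0.17 and ranged from -0.81 to 0.06. Across all 15603 genes tested with OSM, 10.6% fell, 10.8% rose and 21.4% passed in either direction, with a median log2 change of -0.0029. Both OSM libraries lay below both control libraries for 34 of the 40 nuclear members, against 31.0% of all genes tested, and above both for 1, against 29.9%. The share called, 12 of 40, is above the background share, and each change is small: Cox6a2 aside, the called members were lower by 13.4% to 24.7%. Over all 49 members tested, 14 were called with OSM. This count fell without either control or either OSM replicate and rose without either IL6 replicate. The share of all genes called was not counted in those fits. Cox6a2, Cycs and Ndufb7 kept their calls with OSM whichever library was left out, and each other called member lost its call without at least 1 library. In these bulk libraries, fewer myotubes and less RNA per myotube cannot be told apart.

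LIF gave the same direction with fewer calls. With LIF, 5 of the 40 nuclear members fell and none rose, against 3.46% of all genes lower, 4.20% higher and 7.66% called in either direction. Log2 changes of the nuclear members with LIF had a median of -0.14, beside -0.0079 over all genes, and 35 of the 40 had both LIF libraries below both controls, against 26.8% of all genes. Over all 49 members, 6 were called with LIF, and the count fell without control replicate 1 or either LIF replicate. In those fits too, the share of all genes called was not counted. Of the 5 nuclear calls with LIF, only that of Cox6a2 held whichever library was left out. With IL6, 0 of the 40 nuclear members were called by edgeR, and 0% of all genes. Without adjustment, 11 nuclear members had p under 0.05 with IL6. The share of all genes at that unadjusted level was not counted, so the 11 are not read as a result. DESeq2 also called 0. Leaving out IL6 replicate 2 gave some calls among the 49 with IL6, in both directions, again with no share of all genes counted. The median log2 change of nuclear members with IL6 was -0.11, beside 0.00061 over all genes, and 21 of 40 had both IL6 libraries below both controls, against 14.1% of all genes. The 2 IL6 libraries stood apart: the median deviation of the 40 members from their own mean log2 level over the 8 libraries was -0.10 in IL6 replicate 1 and 0.07 in IL6 replicate 2, beside 0.11 and 0.09 in the controls, so the IL6 values rest mainly on replicate 1. The 3 comparisons share the same 2 control libraries, so their values are not independent of one another. Control replicate 1 was the highest of the 8 libraries for 21 of the 40 nuclear members and control replicate 2 for 16.

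**Figure D1:**
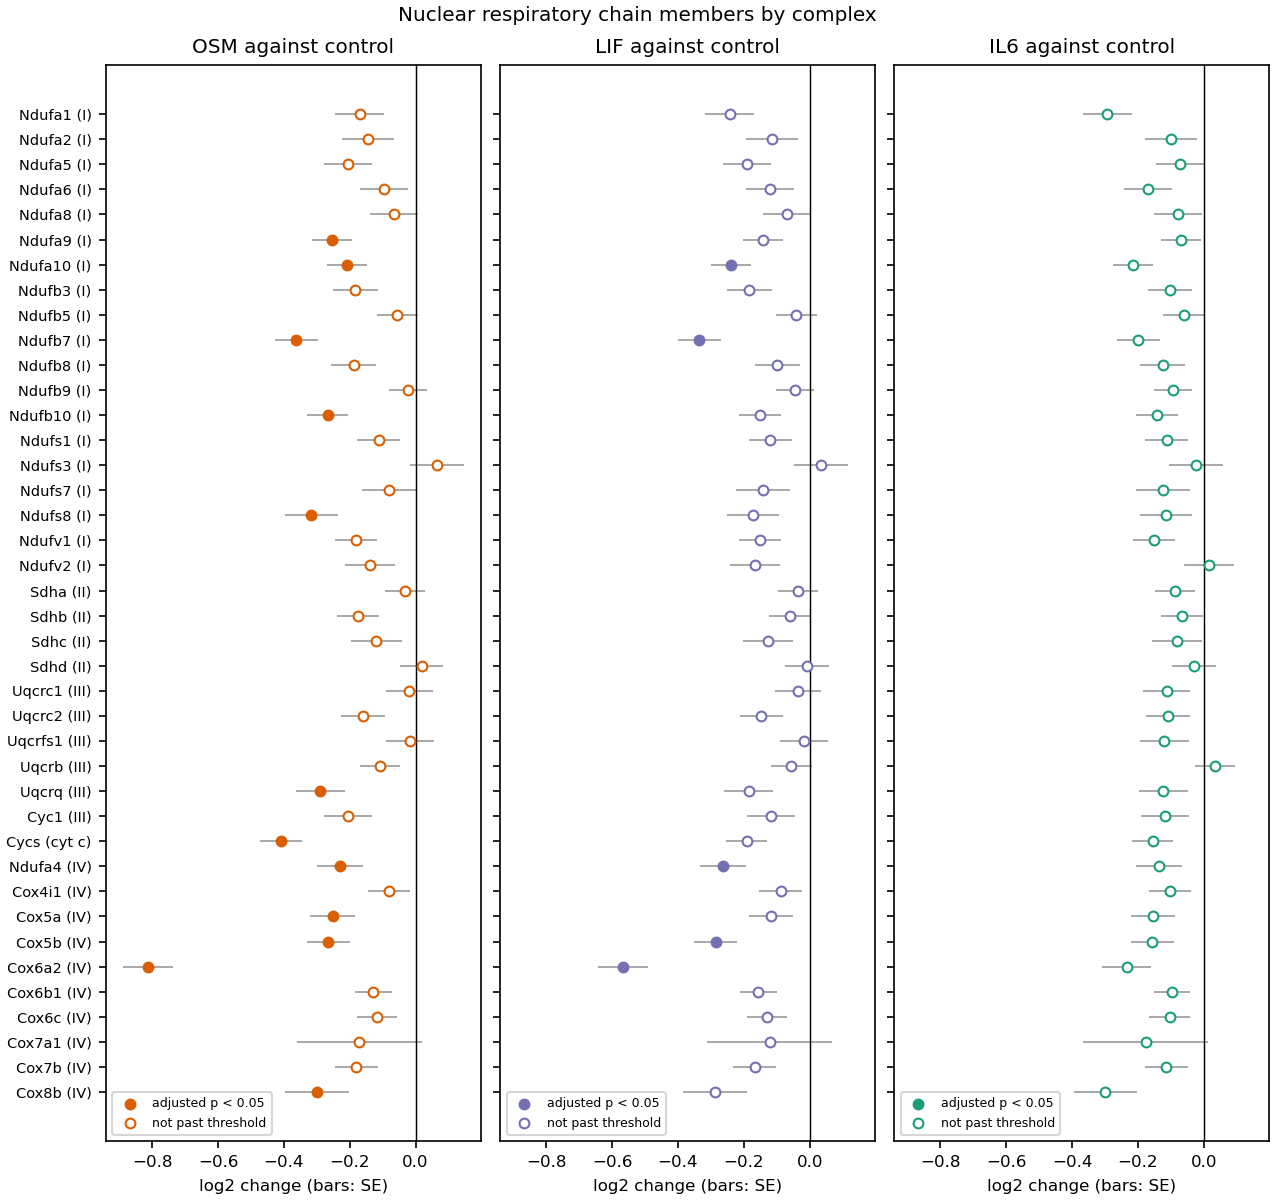
Log2 change (x axis, bars: standard error of the fit) of each of the 40 nuclear members (y axis, complex in brackets) with OSM, LIF and IL6 against control, 2 libraries per group. Filled points passed an adjusted p of 0.05: 12 with OSM, 5 with LIF and 0 with IL6; nearly all points lie left of 0, and Cox6a2 lies furthest left with OSM and with LIF.

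The sum of myotube marker levels moved the same way, from a mean of 27855 CPM in controls to 25164 with IL6, 25076 with LIF and 23575 with OSM. The 10 markers had median log2 changes of -0.22 (OSM), -0.13 (LIF) and -0.12 (IL6), and 3, 2 and 0 of them fell in that order. Of all genes tested, 10.6% fell and 10.8% rose with OSM, 3.46% fell and 4.20% rose with LIF, and 0% were called with IL6. These shares also stand beside the marker counts that follow. The markers that fell with OSM included Myog, a transcription factor of muscle differentiation (log2 change -0.53, edgeR adjusted p = 0.00070). Markers of undifferentiated myoblasts summed to 1052 to 1175 CPM in controls, 1052 to 1086 with IL6, 991 to 1015 with LIF and 816 to 851 with OSM. Among these 8 markers, 4 cell-cycle genes fell with OSM while Pax7, Myf5 and Sdc4 rose, and 4 fell and 1 rose with LIF. Fibroblast markers summed to 1715 to 1792 CPM in controls, 1559 to 1775 with IL6, 2044 to 2109 with LIF and 2107 to 2219 with OSM, and of the 5 tested, Col3a1 (0.49, edgeR adjusted p = 0.00037) and Pdgfra (0.53, adjusted p = 0.019) rose with OSM and Fbln1 fell (-0.46, adjusted p = 0.017). Col1a1 had an OSM value of -1.61 (SE 0.47, adjusted p = 0.086). With LIF, Col3a1 rose (0.37, adjusted p = 0.0085), 3 of the 5 had negative values, and the median of the 5 was -0.12. At very low levels, macrophage markers summed to 2.68 to 2.92 CPM in controls and 5.13 to 5.44 with OSM, where Cd68 rose, and the adipocyte marker Fabp4 rose with OSM (1.68, adjusted p = 0.010). The part of these marker changes in the lower respiratory chain levels was not tested.

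Within complex IV, cytochrome c oxidase, 5 of 10 nuclear members fell with OSM and 3 with LIF, where 10.6% and 3.46% of all genes fell. Cox6a2, the heart and skeletal muscle form of a small regulatory subunit, was at 188 and 167 CPM in the 2 controls, 141 and 160 with IL6, 121 and 119 with LIF, and 104 and 98.1 with OSM. The LIF and OSM libraries lay below both the control and the IL6 libraries, with no overlap. Relative to control, Cox6a2 fell by 0.81 on the log2 scale with OSM (SE 0.076, edgeR adjusted p = 4.56e-06) and by 0.57 with LIF (SE 0.075, adjusted p = 0.00058). Its value with IL6 was -0.23 (SE 0.075, adjusted p = 0.94). Expressed as a percentage, the level was 43.1% lower with OSM and 32.5% lower with LIF. In GENCODE M21, 10.3% of Cox6a2's exon bases overlap Itgad on the opposite strand.

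Cox5b, a nuclear subunit on the matrix side of complex IV, was at 189 and 183 CPM in controls, 159 and 175 with IL6, 154 and 152 with LIF, and 161 and 149 with OSM. Every cytokine library was below both controls. The OSM libraries overlapped both other cytokine groups, and the LIF libraries were below the IL6 libraries. Cox5b fell by 0.27 with OSM (SE 0.066, edgeR adjusted p = 0.011) and by 0.29 with LIF (SE 0.066, adjusted p = 0.017). Cox5a, the partner subunit that binds next to Cox4i1, fell by 0.25 with OSM (SE 0.068, adjusted p = 0.018), and its LIF value was -0.12 (adjusted p = 0.37). Cox5b shares 25.9% of its 50-base stretches with other annotated genes and Cox5a 10.5%, and reads on those stretches can be left unassigned. For Cox5a, the genes that share stretches include Gm26631, which overlaps 12.8% of its exon bases on the opposite strand. Ndufa4, first described with complex I and now placed with complex IV, fell by 0.23 with OSM (SE 0.070, adjusted p = 0.032) and by 0.26 with LIF (SE 0.070, adjusted p = 0.036).

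Among the 3 muscle isoforms, Cox6a2 was a smaller part of its pair with LIF and OSM than in controls, and Cox8b with LIF and IL6. Levels per kilobase of exon (CPM per kb) allow isoforms of different length to be set side by side. Cox6a2 made up 69.1% and 65.8% of the summed Cox6a2 and Cox6a1 level in controls, 65.3% and 66.1% with IL6, 59.7% and 59.6% with LIF, and 55.3% and 57.1% with OSM. All 4 LIF and OSM libraries were below all 4 control and IL6 libraries. The general isoform Cox6a1 had log2 changes of -0.11 with OSM (SE 0.074, edgeR adjusted p = 0.31) and -0.08 with LIF (SE 0.074, adjusted p = 0.64).

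Cox8b, the muscle form of a small membrane subunit, fell by 0.30 with OSM (SE 0.097, edgeR adjusted p = 0.042), a call that DESeq2 did not make. Its general partner Cox8a fell by 0.24 (SE 0.070, adjusted p = 0.025), a call lost without control replicate 2, either LIF replicate or either OSM replicate. Cox8b's share of the pair was 26.6% ± 0.467 (SD, n = 2) in controls, 23.96% ± 0.126 with IL6, 24.4% ± 1.26 with LIF and 25.8% ± 2.27 with OSM, and the OSM libraries overlapped the controls. Cox7a1, the muscle form of another small subunit, was low in these cells, at 2.63 to 3.53 CPM. It held 4.14% ± 0.316 (SD, n = 2) of the summed Cox7a1 and Cox7a2 level in controls and 4.03% ± 0.0791 with OSM. Its log2 change with OSM was -0.17 with an SE of 0.19 (adjusted p = 0.58), so a change of the size seen for most members was not detectable at this depth.

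**Figure D2:**
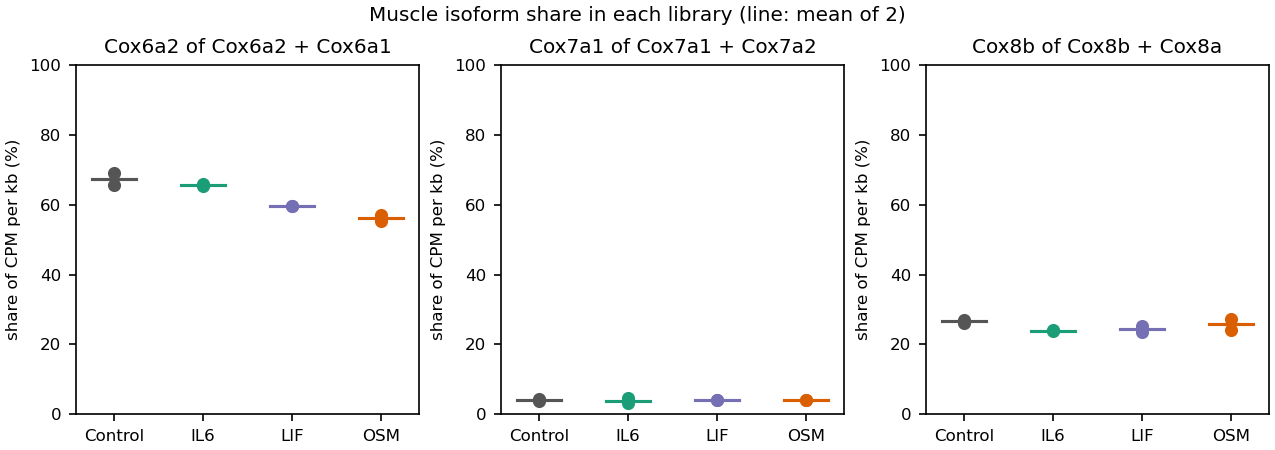
Share of the muscle isoform (y axis, percent of the summed level per kb of exon of both isoforms) in each library, by group (x axis); points are libraries and lines are means of 2. Cox6a2's share is 65.3% to 69.1% in control and IL6 libraries and 55.3% to 59.7% in LIF and OSM libraries, while Cox7a1's share runs from 3.30% to 4.50% and Cox8b's from 23.6% to 27.4%.

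Cytochrome c, the soluble carrier between complexes III and IV that also triggers apoptosis once released from mitochondria, is encoded by Cycs. Its level was 163 and 164 CPM in controls, 140 and 153 with IL6, 147 and 139 with LIF, and 122 and 124 with OSM. Both OSM libraries were below all 6 others. Cycs fell by 0.41 with OSM against control (SE 0.063, edgeR adjusted p = 0.00039) and was also lower with OSM than with IL6, by 0.25 (SE 0.063, adjusted p = 0.014), a call lost without IL6 replicate 2 or either OSM replicate. Its LIF value was -0.19 (SE 0.063, adjusted p = 0.088). Of its 50-base stretches, 28.5% also occur in annotated copies.

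Complex III, which passes electrons from ubiquinol to cytochrome c, had 1 call with OSM among 6 nuclear members, beside 10.6% of all genes lower, which is too few to read as a result about the complex. Uqcrq, a small subunit next to cytochrome b, was at 183 and 161 CPM in controls and at 147 and 134 with OSM, with no overlap, and fell by 0.29 (SE 0.075, edgeR adjusted p = 0.015). The other 5 members had OSM changes within -0.21 and -0.02. None of the 6 was called with LIF. Per kb of exon, Uqcrb was the highest of the 6 in controls, at 146 CPM per kb, and Uqcrc1 the lowest, at 39.0.

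Complex II, succinate dehydrogenase, had no call among its 4 members with any cytokine. Of all genes, 21.4% (OSM), 7.66% (LIF) and 0% (IL6) were called, and 4 members are too few to read as a result about the complex. Sdha, the flavoprotein that oxidises succinate, was at 305 and 291 CPM in controls and at 291 and 292 with OSM. The groups overlapped, and its log2 change of -0.03 had an SE of 0.061 (edgeR adjusted p = 0.77). Sdhb, the iron-sulfur subunit, had the largest change of the 4 with OSM, at -0.17 (SE 0.063, adjusted p = 0.070). The median over the 4 was -0.08 (OSM), -0.05 (LIF) and -0.07 (IL6). Without adjustment, 1 of the 4 had p under 0.05 with OSM and none with LIF or IL6. No share of all genes was counted at that level, and whether complex II differs from the other complexes was not tested. In controls Sdhd stood highest, at 176 CPM per kb, and Sdhc lowest, at 46.9.

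Complex I, the NADH dehydrogenase and the largest complex, had 5 of 19 nuclear members lower with OSM and 2 with LIF. Their shares were 26.3% and 10.5%, beside 10.6% and 3.46% of all genes. Ndufb7, an accessory subunit on the intermembrane side, was at 80.5 and 78.3 CPM in controls, 67.4 and 70.9 with IL6, 65.3 and 60.5 with LIF, and 61.95 and 61.5 with OSM. Every cytokine library was below both controls. Ndufb7 fell by 0.36 with OSM (SE 0.065, edgeR adjusted p = 0.0013) and by 0.34 with LIF (SE 0.065, adjusted p = 0.0064). The LIF call was lost without LIF replicate 2 (adjusted p = 0.14), and its IL6 value was -0.20 (SE 0.065, adjusted p = 0.94).

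Ndufs8, a core subunit that carries iron-sulfur clusters, was at 71.9 and 66.0 CPM in controls and 58.5 and 52.3 with OSM, and fell by 0.32 (SE 0.080, edgeR adjusted p = 0.013). Ndufb10, an accessory subunit of the membrane arm, was at 89.2 and 93.3 CPM in controls and 74.6 and 77.0 with OSM, and fell by 0.27 (SE 0.063, adjusted p = 0.0085). Ndufa9, which sits where the membrane and matrix arms meet, was at 123 and 116 CPM in controls and 102 and 98.8 with OSM, and fell by 0.26 (SE 0.061, adjusted p = 0.0089). None of these 3 was called with LIF, where their values were -0.17, -0.15 and -0.14. Ndufa10, an accessory subunit, fell by 0.21 with OSM (SE 0.061, adjusted p = 0.027) and by 0.24 with LIF (SE 0.061, adjusted p = 0.030). Ndufs3, another core subunit, was at 85.6 and 87.8 CPM in controls and 91.3 and 89.96 with OSM, and its change of 0.06 (SE 0.082, adjusted p = 0.64) was not called. It was singled out after its values were seen, as the nuclear member with the highest OSM value, and 39.7% of its 50-base stretches also occur in other annotated genes. Per kb of exon in controls, Ndufb9 was the highest nuclear member of complex I at 142 CPM per kb and Ndufb7 the lowest at 17.6, where Ndufb7's length of 4522 bases counts every annotated exon and lowers its value.

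**Figure D3:**
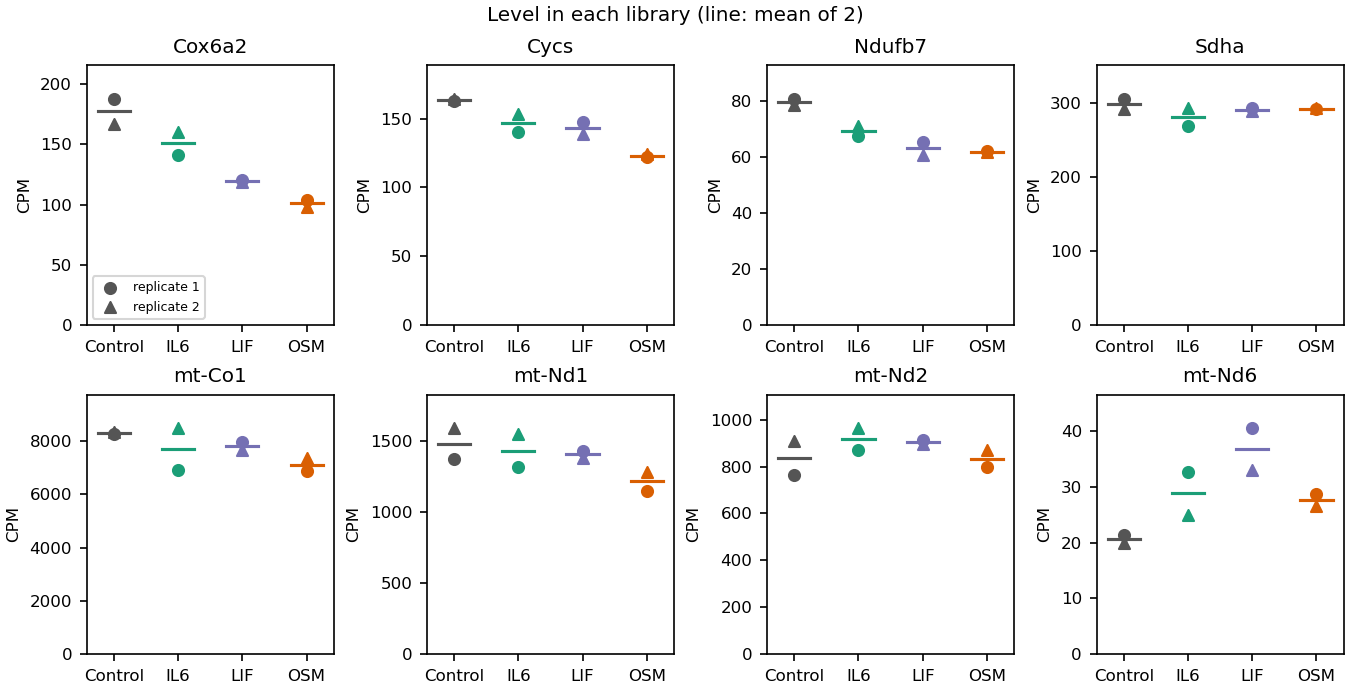
Level (y axis, TMM-scaled CPM, each panel from 0) of 4 nuclear and 4 mitochondrially encoded members in every library, by group (x axis); symbols give the replicate number and lines the mean of 2. Cox6a2, Cycs and Ndufb7 step down from control to OSM, Sdha stays between 268 and 305 CPM, mt-Co1 and mt-Nd1 have their lowest mean with OSM, and mt-Nd6 is above both controls in every cytokine library.

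Between cytokines, Cox6a2 and Cycs were the called members. OSM against IL6 gave 2 lower members of 49 tested, which were Cox6a2, by 0.58 (SE 0.076, edgeR adjusted p = 0.00014), and Cycs. Without IL6 replicate 2 the comparison gave calls in both directions, and the share of all genes called was not counted in that fit. With all 8 libraries, 15.5% of all genes tested were called for OSM against IL6 and 7.52% were lower. LIF against IL6 gave 1 lower member, Cox6a2, by 0.33 (SE 0.075, adjusted p = 0.035), a call lost without IL6 replicate 2, either LIF replicate or either OSM replicate, where 2.78% of all genes were called and 1.02% were lower. OSM against LIF gave 0 calls among the 49 by edgeR and 1 by DESeq2, where 8.04% of all genes were called by edgeR. At an unadjusted p under 0.05, 6 of the 49 passed for OSM against LIF. The share of all genes passing that unadjusted level was not counted, so the 6 are not read as a result. Cox6a2 had an OSM minus LIF value of -0.25 (SE 0.076, adjusted p = 0.069) and Cycs one of -0.22 (SE 0.063, adjusted p = 0.051), neither past the threshold.

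The 13 mitochondrially encoded members supplied 1.52% and 1.59% of gene counts in the controls, 1.42% and 1.60% with IL6, 1.53% and 1.46% with LIF, and 1.29% and 1.41% with OSM. Both OSM libraries were below the other 6, though the higher OSM library lay close under the lower IL6 library. Across all libraries mt-Co1, the catalytic subunit of complex IV, made up 50.1% to 53.5% of these counts. This has no correction for length or for the sequence shared with nuclear copies described below, so it is not read as mt-Co1's part of the mitochondrial RNA. The 40 nuclear members together supplied 0.572% and 0.576% of counts in controls, 0.517% and 0.561% with IL6, 0.528% and 0.519% with LIF, and 0.516% and 0.514% with OSM.

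These counts do not measure all 13 genes. Mouse chromosome 1 carries a nuclear copy of part of the mitochondrial genome, and reads that match both places equally well are not assigned to a gene when counting keeps only uniquely placed reads. In the GRCm38 reference with GENCODE M21, 5 members share at least 98.0% of their 50-base stretches with annotated nuclear copies, and each of the 5 had at most 38 counts in every library. These were mt-Co2 (14 to 38 counts), mt-Co3 (8 to 20), mt-Atp6 (4 to 10), mt-Nd3 (0 to 1) and mt-Nd4l (0 to 1). The other low member, mt-Atp8 (0 to 4 counts), shares none of its stretches with an annotated transcript of another gene. Only annotated transcripts were searched, so a copy without annotation would be missed. The chromosome 1 sequence between the copies of mt-Co2 and mt-Atp6 was not compared. mt-Atp8 also overlaps mt-Atp6 on the same strand over 21.1% of its exon bases, and why its counts are low was not tested. The 7 members with at least 593 counts in every library share at most 62.2%, the value of mt-Nd4. Of these 7, mt-Co1 shares 51.1%, so the counts of both genes can also miss reads. The first 60 bases of mt-Co2, at chrM:7013-7072 (plus strand), and of mt-Nd4l, at chrM:9877-9936 (plus strand), are shown with those of their copies Gm28661, at chr1:24615506-24615565 (minus strand), and Gm10222, at chr1:24612641-24612700 (minus strand), because a read from either place of a pair reads the same. The sequences are from GENCODE M21 on GRCm38, written 5′ to 3′, and no base of a pair differs, so none is in capitals.
mt-Co2: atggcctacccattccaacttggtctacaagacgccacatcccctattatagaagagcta
Gm28661: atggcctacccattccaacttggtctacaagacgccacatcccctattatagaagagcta
mt-Nd4l: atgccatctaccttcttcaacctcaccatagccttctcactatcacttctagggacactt
Gm10222: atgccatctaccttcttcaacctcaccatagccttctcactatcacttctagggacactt
Over the full copies, Gm28661 matched mt-Co2 at all 681 bases compared, Gm10222 matched mt-Nd4l at all 294, Gm28437 matched mt-Co3 at all 783 and Gm10925 matched mt-Atp6 at all 678, while Gm28438 differed from mt-Nd3 at 1 of 345 bases. Gm28438 itself had 99 to 137 counts per library and Gm28661 had 25 to 56. The authors' alignment used GRCm39, so positions there may differ.

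**Figure D4:**
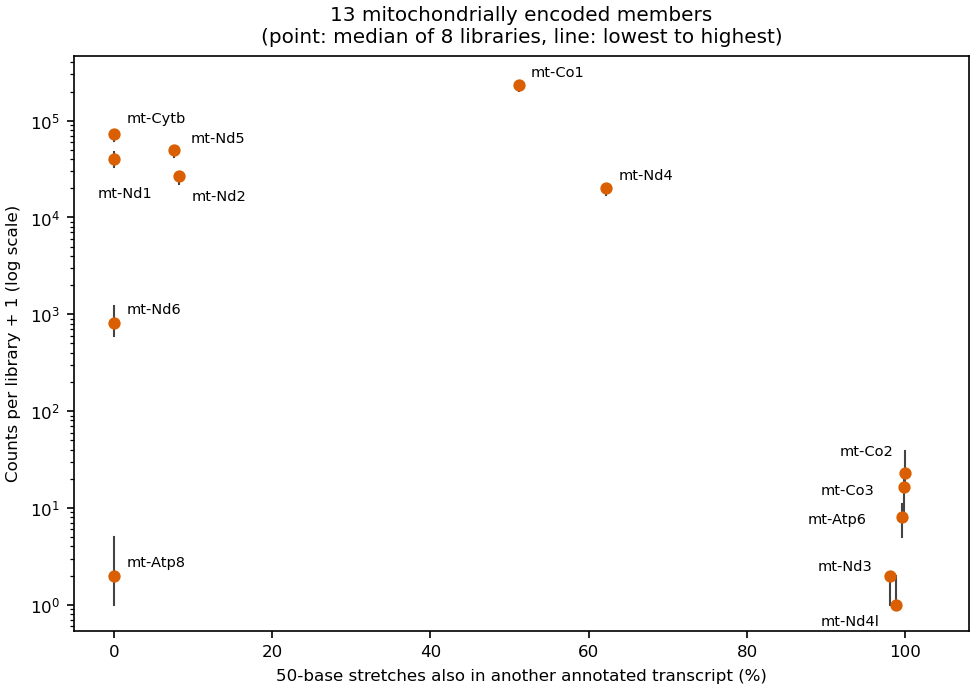
Counts per library plus 1 (y axis, log scale; point: median of 8 libraries, line: lowest to highest) of the 13 mitochondrially encoded members against the percentage of their 50-base stretches found in another annotated transcript (x axis). The 5 members at 98.0% or more have at most 38 counts, mt-Atp8 is low with no shared stretch, and the other 7 have at least 593 counts.

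The low counts of mt-Co2, mt-Co3, mt-Atp6, mt-Atp8, mt-Nd3 and mt-Nd4l are therefore not read as low expression. Of the 9 mitochondrially encoded members tested, 1 fell and 1 rose with OSM, or 11.1% each way, near the 10.6% and 10.8% of all genes. mt-Nd1, a core subunit of complex I at the quinone site, was at 1372 and 1586 CPM in controls, 1317 and 1544 with IL6, 1429 and 1378 with LIF, and 1150 and 1280 with OSM. It fell by 0.28 with OSM (SE 0.090, edgeR adjusted p = 0.040), and both OSM libraries were below all others. The call was lost without control replicate 2, either LIF replicate or either OSM replicate.

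Most other heavy-strand genes had OSM values of similar size that did not pass. mt-Co1 was at 8260 and 8335 CPM in controls and 6864 and 7368 with OSM, a change of -0.22 (SE 0.087, edgeR adjusted p = 0.091). mt-Cytb, the catalytic subunit of complex III, had -0.20 (SE 0.073, adjusted p = 0.068). The complex I proton-pumping subunits mt-Nd4 and mt-Nd5 had -0.21 (SE 0.074, adjusted p = 0.060) and -0.20 (SE 0.079, adjusted p = 0.093). For each of these 4, both OSM libraries were below both controls. This held for 7 of the 9 mitochondrially encoded members tested, against 31.0% of all genes, and 1 of the 9 lay above both, against 29.9%. mt-Nd2, another membrane subunit of complex I, was at 765 and 910 CPM in controls and 797 and 870 with OSM, inside the control range, with a change of -0.0078 (SE 0.084, adjusted p = 0.96). mt-Co2 and mt-Co3 had OSM values of -1.02 (SE 0.37, adjusted p = 0.066) and -0.58 (SE 0.43, adjusted p = 0.39) on the few counts given above. With LIF and IL6 the values of mt-Nd1, mt-Nd2, mt-Nd4, mt-Nd5, mt-Cytb and mt-Co1 lay between -0.11 and 0.13, and none was called.

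mt-Nd6, the complex I subunit and the 1 protein encoded on the light strand, went the other way. Its level was 21.4 and 19.9 CPM in controls, 32.8 and 24.9 with IL6, 40.5 and 33.1 with LIF, and 28.8 and 26.6 with OSM. Every cytokine library was above both controls. mt-Nd6 rose by 0.83 with LIF (SE 0.13, edgeR adjusted p = 0.0027), which is 78.2% higher, and by 0.42 with OSM (SE 0.13, adjusted p = 0.041). The LIF call held whichever library was left out, and the OSM call was lost without either control or either OSM replicate. Its IL6 value was 0.48 (SE 0.13, adjusted p = 0.93), and its OSM minus LIF value was -0.41 (SE 0.13, adjusted p = 0.079). Its end overlaps mt-Nd5 on the opposite strand by 14 bases. If counting ignored strand, reads from the 2 strands over this gene could not be told apart, and the strand setting is not given in the sources used here. The libraries hold poly(A)-selected RNA, so a change in all mt-Nd6 RNA and a change in the part with a poly(A) tail cannot be told apart.

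The medians of the 2 genomes were set side by side. With OSM the median log2 change was -0.21 over the 9 mitochondrially encoded members tested and -0.17 over the 40 nuclear ones, a difference of -0.04. With LIF the medians were -0.07 and -0.14, a difference of 0.07, and with IL6 they were -0.05 and -0.11, also a difference of 0.07. Over the 7 tested members under 90% shared stretches, which leaves out mt-Co2 and mt-Co3, the mitochondrial medians were -0.20 (OSM), -0.03 (LIF) and -0.03 (IL6), and the differences were -0.03, 0.11 and 0.08. The OSM difference over the 9 was -0.112 without OSM replicate 2 and 0.013 without OSM replicate 1. These are descriptions with no test, since members share their libraries. Within single libraries, the lowest values were not in the same place for the 2 genomes. IL6 replicate 1 was the lowest of the 8 libraries for 19 of the 40 nuclear members, OSM replicate 2 for 9 and OSM replicate 1 for 5. Among the 7 mitochondrially encoded members with enough counts, OSM replicate 1 was the lowest for 5.

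Other genes of the pathway were read from lists of names. Of 22 further subunits of complexes I to IV, 7 fell (31.8%, against 10.6% of all genes) and none rose with OSM, with a median log2 change of -0.16. With LIF, 2 of the 22 fell (9.09%, against 3.46% of all genes), with a median of -0.11. The 4 with the smallest adjusted p with OSM were Ndufa13 (-0.36, edgeR adjusted p = 0.0036), Ndufs6 (-0.33, adjusted p = 0.0047) and Ndufa12 (-0.28, adjusted p = 0.020) of complex I and Uqcr10 (-0.32, adjusted p = 0.0098) of complex III. Of 15 nuclear ATP synthase genes tested, 2 fell with OSM (13.3%, near the 10.6% of all genes): Atp5me (-0.24, adjusted p = 0.017) and Atp5mf (-0.20, adjusted p = 0.033), both small membrane subunits. With LIF, 1 of the 15 fell (6.67%, where 3.46% of all genes fell), Atp5me (-0.26, adjusted p = 0.027). All 15 had negative values with OSM (median -0.15) and with LIF (median -0.12). None of 13 citric acid cycle genes was called with OSM or LIF, where 21.4% and 7.66% of all genes were called. The 13 had medians of -0.06 and -0.07. The smallest adjusted p among them was 0.065 with OSM and 0.071 with LIF.

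Regulators and expression factors showed no common direction. Ppargc1a, the coactivator of mitochondrial biogenesis, was at 29.4 and 39.8 CPM in controls and 31.4 and 36.4 with OSM, inside the control range (log2 change -0.03, SE 0.16, edgeR adjusted p = 0.92). Tfam, which packages and transcribes mitochondrial DNA, was at 45.9 and 47.0 CPM in controls and 44.9 and 47.4 with OSM (log2 change -0.0092, SE 0.068, adjusted p = 0.95). Of 14 regulators tested, 1 fell with OSM (7.14%, below the 10.6% of all genes) and 1 rose (where 10.8% of all genes rose). Nrf1, a transcription factor of nuclear respiratory genes, fell (-0.25, adjusted p = 0.049), and Nrip1, a corepressor of oxidative genes, rose (0.22, adjusted p = 0.033). With LIF, 1 of the 14 rose, Esrrb (0.53, adjusted p = 0.0089), where 4.20% of all genes rose. Of 20 genes of mitochondrial DNA maintenance and expression, 1 fell with OSM (5%, below the 10.6% of all genes) and 1 rose (where 10.8% of all genes rose). Slirp, which stabilises mitochondrial mRNAs, fell (-0.28, adjusted p = 0.021) and the helicase Twnk rose (0.23, adjusted p = 0.0499). Of 41 assembly factors tested, 3 fell (7.32%, below the 10.6% of all genes) and 1 rose (where 10.8% of all genes rose) with OSM: Ndufaf2 (-0.42, adjusted p = 0.022), Timmdc1 (-0.20, adjusted p = 0.041) and Sco1 (-0.26, adjusted p = 0.0499) fell, and Ttc19 (0.37, adjusted p = 0.020) rose. No gene of any of these lists was called with IL6. The median over regulators, expression factors and assembly factors with OSM was -0.02, -0.01 and -0.03.

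Promoter sequence was at hand for 29 of the 40 nuclear members, as the 250 bases before the RefSeq start site on GRCm38.p6. Cycs is shown as the nuclear member that fell second furthest with OSM, and Cox8b as a muscle isoform, each 5′ to 3′ on the gene's strand with the matched motif in capitals. The Cycs window is chr6:50566570-50566819 (minus strand). Its capitals mark the cyclic AMP response element TGACGTCA, which starts 169 bases before the start site, and the NRF-1 core GCATGCGC, which starts 60 bases before it. The Cox8b window is chr7:140900447-140900696 (minus strand), and its capitals mark the E-box CAGCTG, a letter pattern that myogenic factors bind, 19 bases before the start.
Cycs: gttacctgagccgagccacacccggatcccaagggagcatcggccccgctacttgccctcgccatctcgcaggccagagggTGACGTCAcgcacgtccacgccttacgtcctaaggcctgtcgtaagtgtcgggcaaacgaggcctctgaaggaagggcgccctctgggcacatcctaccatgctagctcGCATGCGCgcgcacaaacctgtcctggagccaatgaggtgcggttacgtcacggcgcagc
Cox8b: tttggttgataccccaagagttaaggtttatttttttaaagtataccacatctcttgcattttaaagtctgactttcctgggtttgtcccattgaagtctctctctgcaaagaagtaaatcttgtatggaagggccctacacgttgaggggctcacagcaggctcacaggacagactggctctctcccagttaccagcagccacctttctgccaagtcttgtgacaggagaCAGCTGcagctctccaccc
Searched on both strands, GCATGCGC was in 4 of the 29 windows (Ndufa6, Ndufa8, Sdhb and Cycs), against 2.26% of 32851 RefSeq windows of the same length, and TGACGTCA was in 3 (Ndufa10, Uqcrfs1 and Cycs), against 1.55%. CAGCTG was in 4, against 4271 of the 32851, and the ETS core CCGGAA was in 9, against 12.0%. The STAT pattern TTCNNNGAA was in 1 of the 29, against 7.02%, and the oestrogen-related receptor element AAGGTCA was in 0, against 4.08%. Of the 10 members called lower with OSM that had a window, 1 held GCATGCGC, 2 held TGACGTCA, 2 held CAGCTG, 3 held CCGGAA and 1 held TATAAA. None of the 10 held TTCNNNGAA or AAGGTCA. A match shows only that these letters are present.

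Across the 8 libraries, the genes outside all lists whose log2 level ran closest to the mean of the nuclear members were Ncaph2 (Pearson r = 0.984), Tab1 (0.980), Tnni1 (0.974), Maea (0.974) and Ltbp4 (0.974). The 8 points share 4 groups and their library sizes, and these values are a description only.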

How the data were processed

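Poly(A) RNA of 8 libraries (4 groups of 2, from the sample labels) was made with a stranded kit, per the labels' protocols. The deposited values are raw counts of reads per gene, made by the authors. The submitters' processing notes name Trim Galore 0.6.5, STAR 2.7.3a, HTSeq 0.11.1, FastQC 0.11.9, MultiQC 1.12 and DESeq2 1.34.0, and the builds GRCm39 and mm39. HTSeq's strand setting and the annotation release are not given in the sources used here. Of each library's recorded alignments, 11.7% to 12.7% had no gene, several genes or several places, and were left out.

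Counts were tested with edgeR 4.0.16 in R 4.3.3: filterByExpr at a minimum count of 10 (15603 genes), TMM scaling, a mean per group over all 8 libraries (4 residual degrees of freedom), the robust quasi-likelihood F test, and Benjamini-Hochberg adjustment over all genes within each of 6 contrasts. A call is an adjusted p under 0.05. The code was tested on simulated data. The biological coefficient of variation was 6.42%. Levels are TMM-scaled CPM, and per kb they are divided by the union of exons in GENCODE M21 (GRCm38), from which symbols, overlaps and shared 50-base stretches also came: 52093 identifiers received a symbol, and these carry 99.8% of counts. Promoters came from RefSeq (GRCm38.p6). The listed genes Atp5if1 and Fastkd4 had no match and were not used here.

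Overlap with another gene exceeded 10% of exon bases for 7 members, and shared stretches exceeded 10% for 16. Replicates differed by more than counting error. Members and lists were chosen with earlier results of these data known. Named genes were all mitochondrially encoded members, called nuclear members (in full for the 8 smallest adjusted p per contrast), the muscle isoforms and their partners, the highest and lowest nuclear member per complex, up to 4 called genes per list, Ppargc1a and Tfam, and the 5 genes most alike. Sdha, Sdhb and Ndufs3 were added after their values were seen. Alternatives were another scaling, no filter, DESeq2 1.42.0, other library sizes, a 2-group fit, a replicate block, and leaving out each library. The set of mitochondrially encoded members under 90% shared stretches was added after the data were seen.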

Additional observations from a re-analysis of the deposited data

How the results depend on the processing

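Of the 23 member calls in the 6 comparisons, 6 held under every alternative: Cox6a2 with OSM against control (adjusted p at most 0.00052), with LIF against control (0.018) and with OSM against IL6 (0.0073), Cycs (0.015) and Ndufb7 (0.024) with OSM against control, and mt-Nd6 with LIF against control (0.030). The other 17 were lost when at least 1 library was left out, and Cox8b with OSM also under DESeq2. Cox8a, a partner isoform, lost its OSM call in 5 of the fits without 1 library. Leaving out single libraries, which leaves a group with 1 sample assumed to vary like the others, moved the OSM against control count from 14 to between 3 and 26: 7 without control replicate 1, 8 without control replicate 2, 7 without OSM replicate 1, 3 without OSM replicate 2, and 26 without either IL6 replicate. The LIF count moved from 6 to between 2 and 9: 3 without control replicate 1, 3 without LIF replicate 1 and 2 without LIF replicate 2. The IL6 count stayed at 0 except 4 (3 lower, 1 higher) without IL6 replicate 2 and 1 with no filter on low counts. OSM against LIF went from 0 to 2 with library totals only, 4 with no filter, 1 with DESeq2 and 7 with only the 2 groups compared, and to between 0 and 3 without single libraries (2 without either control, 3 without either IL6 replicate). OSM against IL6 went from 2 to 4 with library totals only, and to between 1 and 8 (8 lower without IL6 replicate 1; 4 without IL6 replicate 2, of which 3 were higher and 1 lower, with 1 shared with the 2; 1 without either OSM replicate). LIF against IL6 went from 1 to 2 with no filter, and to between 0 and 3 (3 without IL6 replicate 1, 0 without IL6 replicate 2, either LIF replicate or either OSM replicate). The share of all genes called was not counted for any alternative fit, so these counts have no background beside them. The cause of the changes was not tested. OSM against control gave 14 under RLE and DESeq2, 17 with library totals only, 19 with no filter and 20 with only the 2 groups compared.

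Same-numbered libraries deviated together with correlations of 0.007 to 0.181, not above 0.1 for every pair of groups, so the numbers were not taken to pair libraries. With the replicate block, OSM against control gave 21 calls, LIF against control 7, IL6 against control 0, OSM against LIF 3, OSM against IL6 4 and LIF against IL6 2.

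The median of the mitochondrially encoded members minus that of the nuclear members ranged, without single libraries, from -0.112 (without OSM replicate 2) to 0.013 with OSM, from 0.044 to 0.112 with LIF and from 0.025 to 0.082 with IL6, and over members under 90% shared stretches it was -0.03, 0.11 and 0.08. The mean mitochondrial share of counts, 1.56% in controls, 1.51% with IL6, 1.496% with LIF and 1.35% with OSM, became 1.36%, 1.32%, 1.32% and 1.19% of all alignments; over all mitochondrial genome genes it was 1.63% in controls, 1.58% with IL6, 1.57% with LIF and 1.42% with OSM. The single libraries ran from 1.52% to 1.59% in controls, 1.42% to 1.60% with IL6, 1.46% to 1.53% with LIF and 1.29% to 1.41% with OSM.

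Values that changed sign were all uncalled. Without single libraries the log2 changes with OSM ran from -0.127 to 0.131 for mt-Nd2, -0.232 to 0.213 for Ppargc1a and -0.041 to 0.035 for Tfam. With LIF they ran from -0.176 to 0.038 for mt-Nd1, -0.0094 to 0.245 for mt-Nd2, -0.074 to 0.024 for mt-Nd4, -0.124 to 0.060 for mt-Cytb, -0.341 to 0.09995 for Ppargc1a and -0.015 to 0.056 for Tfam. With IL6 they ran from -0.168 to 0.062 for mt-Nd1, -0.125 to 0.060 for mt-Nd4, -0.156 to 0.019 for mt-Nd5, -0.052 to 0.016 for mt-Cytb and -0.261 to 0.032 for mt-Co1. With library totals only, mt-Cytb with IL6 was 0.0043.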

Other observations

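The mitochondrial ribosomal RNAs, which are outside the 53 genes, had no call with OSM: mt-Rnr1 had 8525 to 9958 counts per library and a log2 change of 0.06 (edgeR adjusted p = 0.57), and mt-Rnr2 had 9400 to 12481 counts and a change of -0.05 (adjusted p = 0.78). Because the libraries were poly(A)-selected, these counts do not measure the total level of either ribosomal RNA. Reads with several places in the genome made up 4.56% and 4.76% of alignments in controls, 4.56% and 4.77% with IL6, 4.50% and 4.46% with LIF, and 4.40% and 4.40% with OSM.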
